A study of Mus musculus with 5 samples.

Results

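Translation factors are the proteins that place ribosomes on messenger RNA and move them along it. The genes described here are the 85 protein-coding genes of the deposited table of postnatal day 75 hair follicle stem cells whose symbols begin with Eif or Eef and a digit, out of 55357 genes in all. The genes for the gamma subunit of eIF2 on the sex chromosomes, Eif2s3x and Eif2s3y, were left out by that rule. The rule reads only symbols and gene type, but the group was proposed with earlier results of these data known. Of the 85 genes, 66 had reads in at least 1 library and 64 had enough reads to be tested.

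The bulge of the follicle houses stem cells that rest between phases of hair growth. Both groups were Ring1a-/- with Ring1b flox/flox alleles, and both were painted daily with 1% RU-486 for 10 days from day 50. The 2 Control libraries (replicates 1 and 3 in the labels) carried no Cre. The 3 PRC1 i2KO libraries also carried K15-CrePR1, a Cre driven by the keratin 15 promoter and switched on by RU-486. Ring1a and Ring1b are the catalytic subunits of Polycomb repressive complex 1 (PRC1), which ubiquitinates histone H2A, and the comparison asks what loss of Ring1b adds to loss of Ring1a. Cells were taken on day 75 by a sort on EpCAM, Sca1, alpha6-integrin and CD34. Nothing in the labels says that libraries came from separate animals, and if they did not, p-values measure only the spread between these samples.

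Initiation begins when eIF2 brings the initiator tRNA to the small ribosomal subunit, with eIF1, eIF1A, eIF3 and eIF5. The eIF4 proteins recognise the cap of the messenger RNA, unwind its leader and recruit that subunit, and eIF5B joins the large subunit. Elongation factor eEF1A then delivers each charged tRNA, eEF1B recharges eEF1A with GTP, and eEF2 moves the ribosome by a codon. Growing cells raise this machinery through mTORC1, MYC and related pathways, and stressed cells restrain it through the kinases that phosphorylate eIF2. Resting hair follicle stem cells are known for low protein synthesis.

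The libraries held between 8270419 reads (Control 1) and 32463173 reads (Control 3), with the PRC1 i2KO libraries at 9675996, 21102727 and 18657555. Rnf2, the gene of Ring1b, stood at 67.9 and 57.7 CPM in Control (CPM, reads scaled to a common library total) and at 48.1, 46.6 and 50.2 CPM in PRC1 i2KO, a 1.30-fold fall (edgeR quasi-likelihood test, adjusted p 0.0363) that was not called without Control 1, PRC1 i2KO 1 or PRC1 i2KO 2 (adjusted p up to 0.251). Ring1, the gene of Ring1a, had reads in every library, at 30.3 and 27.5 CPM in Control and 19.6, 28.6 and 24.8 CPM in PRC1 i2KO (adjusted p 0.36), although every library is labelled Ring1a-/-. The exons removed from the Ring1a and Ring1b alleles are not known here, so neither gene's reads check the labels. The 8 bulge markers summed to 20531 and 19497 CPM in Control and to 4798, 4979 and 6776 CPM in PRC1 i2KO, and Cd34, part of the sort gate, was 79.3-fold lower (adjusted p 0.00653). Cd34 was not called without Control 1 or without Control 3 (adjusted p up to 0.0567). Of the 8 bulge markers, 6 were called lower and 0 higher, and Krt15 and Postn held most of the sum. Sox9 and Tcf3 were not called and overlapped between groups (edgeR adjusted p 0.178 and 0.987). All 8 bulge markers had reads in every library. In such sorted bulk samples, fewer cells of a type and less RNA per cell cannot be told apart.

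Translation factor transcripts were higher in PRC1 i2KO as a group, by small steps. They summed to 19176 and 19115 CPM in Control and to 25305, 25554 and 23900.4 CPM in PRC1 i2KO. As shares of each library's unscaled read total they held 1.88% and 1.89% against 2.52%, 2.58% and 2.43%. The groups overlapped in neither measure. Of the 64 genes tested, 28 rose and 1 fell at an adjusted p under 0.05 in edgeR, and 35 were not called. Over all 15665 tested genes, 18.8% were called higher and 15.1% lower, against 43.8% and 1.56% of the translation factors. At an unadjusted p under 0.05, 35 were higher and 5 lower, beside 23.2% and 20.1% of all tested genes. Their median log2 fold change was 0.36, beside -0.01 over all tested genes, and 47 of the 64 lay above 0, beside 49.6% of all tested genes. In the 3 PRC1 i2KO libraries the median translation factor lay close to the same height, with log2 differences from the Control mean of 0.37, 0.37 and 0.32. The 2 Control libraries lay at -0.03 and 0.03, values that mirror each other because the mean is their own.

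The size of the rises was modest. The 28 genes rose between 1.24-fold and 3.08-fold, 19 of them less than 1.5-fold, and only Eif4e3, Eif4ebp1 and Eif1a rose 2-fold or more. Among all tested genes, 17.3% were called with a change of at least 2-fold, against 4 of the 64 translation factors. In CPM, PRC1 i2KO lay above Control without overlap for 39 of the 64 genes and below for 6, beside 30% and 29.4% of all tested genes. All 28 risen genes were among the 39. In each role for which 0 falls are given, DESeq2 also called 0 lower, and the counts lower at an unadjusted p under 0.05 were 0 apart from those given for the eIF2 kinases and the enzymes that modify elongation factors. DESeq2 called all 28 and 3 more (Eif2b1, Eif3e and Eef1e1) higher, 31 in all, and Eif5a2 lower, where 20.4% and 15.8% of all tested genes were called. Of the 28, 13 stayed called whichever library was left out: Eif1a, Eif3b, Eif3c, Eif3i, Eif3m, Eif4e3, Eif4b, Eif4ebp1, Eif4ebp2, Eif5a, Eif6, Eef1b2 and Eef1g.

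On the deposited TPM values, which are scaled by transcript length, tested with limma on log2(TPM + 1), 10 of the 28 were called higher and none lower, where 11.9% and 14.1% of all tested genes were called. These 10 were Eif1a, Eif3b, Eif3c, Eif4e3, Eif4ebp1, Eif5a, Eif6, Eef1b2, Eef1g and Eef2. That scale shifted the median of all tested genes to -0.13 and that of the translation factors to 0.16, a difference of 0.29. All 28 kept a positive change in each of the 15 alternative settings. With only the 3 deepest libraries (Control 3, PRC1 i2KO 2 and PRC1 i2KO 3), 8 were called higher and 0 lower, beside 10.5% and 6.08% of all genes tested there, and the lone Control library was assumed to vary like the others.

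**Figure D1:**
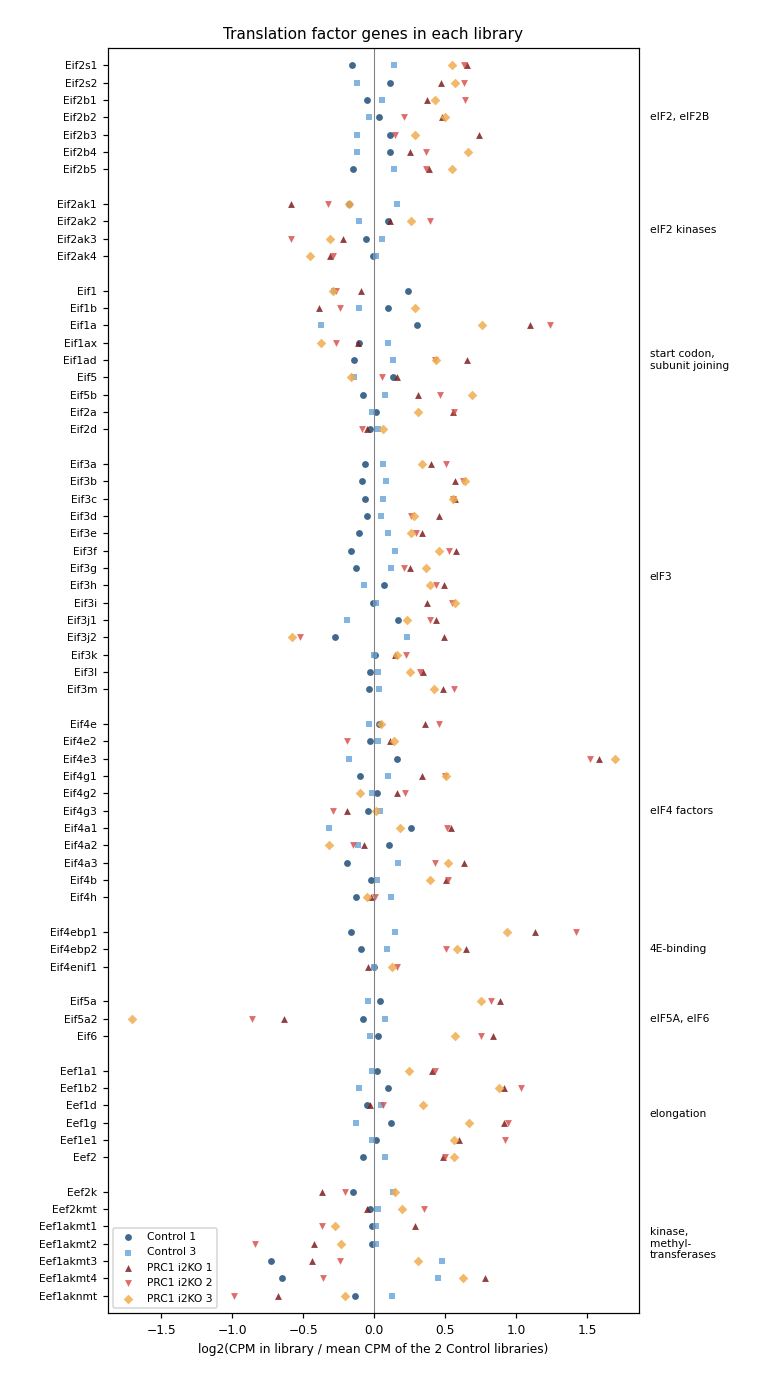
Each row is 1 of the 64 tested translation factor genes, grouped by role, and each point is 1 library, placed by the log2 of its CPM over the mean CPM of the 2 Control libraries. Most PRC1 i2KO points of the eIF2, eIF3 and elongation rows lie to the right of both Control points, while Eif5a2 and 3 of the 4 eIF2 kinases lie mostly to the left.

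Markers of other cell states moved with the same comparison, and their part in the translation factor result was not tested. The 7 cycling markers summed to 37.9 and 18.4 CPM in Control and to 468, 506 and 332 CPM in PRC1 i2KO, and all 7 were called higher. The 7 upper follicle and sebaceous markers summed to 477 and 443 CPM against 7467, 7301 and 6129 CPM, and the 7 suprabasal markers to 1163 and 1158 CPM against 2283, 2994 and 3515 CPM, with all 14 called higher. Basal keratinocyte markers stood at 19628 and 22900 CPM against 11181, 11813 and 15120 CPM (3 of 5 called lower), a sum that is mostly Krt5. Krt14 was at 2714 and 3538 CPM against 3375, 3378 and 3442 CPM, with overlapping groups (edgeR adjusted p 0.534). Itga6 was not called either (adjusted p 0.186). Fibroblast markers were near 73.8 and 71.8 CPM against 33.0, 32.9 and 32.7 CPM (1 of 4 tested higher, 3 lower), a sum that is mostly Col1a2. Melanocyte markers summed to 169 and 156 CPM against 63.3, 67.4 and 62.8 CPM, a sum that is mostly Mitf (163 and 151 CPM against 39.1, 41.2 and 41.0 CPM, called lower). The other 3 tested melanocyte markers lay above Control without overlap: Dct was called higher (8.51-fold, edgeR adjusted p 5.66e-05), and Pmel and Tyrp1 were not called (adjusted p 0.0917 and 0.132). Immune markers summed to 27.3 and 21.4 CPM against 86.4, 102 and 67.8 CPM, a sum that is mostly Cd74. Cd74 was at 22.6 and 19.1 CPM against 83.2, 96.3 and 64.3 CPM and was the 1 of 4 tested called higher. Ptprc, Cd207 and Tyrobp were not called and overlapped between groups, and Lyz2 had 0 reads in every library. Endothelial markers summed to at most 3.90 CPM in any library.

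Promoter sequence was read for the genes that RefSeq's table lists, 52 of the 85 (build GRCm38.p6, from 250 bases before to 50 after the annotated start). A gene could have more than 1 window and was counted once if any of them held a motif. The hexamer CACGTG is the same on both strands and a site that MYC with MAX and other helix-loop-helix factors bind. It was present in 14 of the 52 genes (26.9%). Among all 27025 genes listed there 8.09% held it, and among the 10506 tested protein-coding genes listed 11.6% did. Within the translation factors, 5 of the 21 risen genes with a window held it (23.8%) and 8 of the 28 that were not called (28.6%), with Eif5a2, the gene that fell, as the remaining one. The 5 stretches below were chosen because they belong to risen genes from 4 of the roles and to Eif5a2; they are printed 5′ to 3′ on the gene's strand, with the hexamer in capitals.
Eif3f, chr7:108934327-108934372 (+): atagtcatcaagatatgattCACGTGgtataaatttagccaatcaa
Eif4g1, chr16:20672653-20672698 (+): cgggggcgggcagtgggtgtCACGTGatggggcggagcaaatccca
Eif5a, chr11:69921435-69921480 (-): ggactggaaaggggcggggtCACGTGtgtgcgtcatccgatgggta
Eef2, chr10:81176568-81176613 (+): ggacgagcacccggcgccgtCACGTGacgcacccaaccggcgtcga
Eif5a2, chr3:28781115-28781160 (+): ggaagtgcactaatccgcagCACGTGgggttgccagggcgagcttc

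Many messenger RNAs of the translation machinery begin with a C and a run of pyrimidines, the terminal oligopyrimidine motif through which mTORC1 and LARP1 control their translation. A C followed by at least 4 pyrimidines stood within 2 bases of an annotated start in 9 of the 52 genes (17.3%). The same held for 12% of tested protein-coding genes with a window and 10.6% of all genes listed. Of the 21 risen genes with a window, 7 held it (Eif2b5, Eif1ad, Eif3b, Eif3f, Eif3l, Eif4g1 and Eef1a1), and of the 28 not called, 1 did (Eif2ak4). The ninth was Eif4a3l1, which had no reads. At the annotated base itself only Eif3f of the 52 held the run (1.92%). That was beside 2.98% of tested protein-coding genes with a window and 3.01% of all genes listed. The run of Eif3f is shown here in capitals from the start base on.
Eif3f, chr7:108934400-108934429 (+): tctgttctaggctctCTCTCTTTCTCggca
The motif TGATGNAA was searched on both strands as a core of the element that ATF4 binds. Of the 52 genes only Eef2k held it (1.92%), beside 2.82% of tested protein-coding genes with a window and 4.51% of all genes listed. None of these matches was tested, and a match is not a measured binding site. Nor does a missing match show that a message lacks the pyrimidine run, because the starts used in these cells were not measured. Genes without a window were not searched.

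Of the 7 genes of eIF2 and its exchange factor eIF2B, 3 rose and 0 fell. Eif2s1, the alpha subunit whose phosphorylation halts initiation, was at 32.9 and 40.2 CPM in Control and at 57.4, 56.5 and 53.4 CPM in PRC1 i2KO, a rise of 1.52-fold (log2 0.60, SE 0.13, edgeR adjusted p 0.00635). Eif2s2, the beta subunit, was at 78.2 and 66.4 CPM against 100.1, 112 and 107 CPM (log2 0.56, SE 0.11, adjusted p 0.00401). Every PRC1 i2KO library lay above both Control libraries for both subunits. The call for Eif2s1 was lost without Control 1 (adjusted p 0.0538) and that for Eif2s2 without Control 3 (adjusted p 0.062). Of the 5 eIF2B subunit genes, Eif2b5, the catalytic subunit, rose 1.35-fold (adjusted p 0.0322, up to 0.204 without Control 1, PRC1 i2KO 1 or PRC1 i2KO 2). The other 4, Eif2b1 to Eif2b4, were not called, with fitted ratios from 1.32 to 1.40 and adjusted p from 0.0507 to 0.214. In CPM all 7 genes of this role lay above Control without overlap, beside 30% of all tested genes, and their median log2 fold change was 0.45. On log2(TPM + 1) that median was 0.31 and 0 of the 7 were called higher. Eif2b1 and Eif2b2 overlapped between groups in TPM, with Eif2b2 at 67.4 and 86.0 TPM against 52.5, 68.0 and 96.3 TPM.

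None of the 4 kinases that phosphorylate eIF2 alpha was called by edgeR or DESeq2, and 3 of the 4 were lower at an unadjusted p under 0.05, beside 20.1% of all tested genes. Eif2ak1 (HRI, the haem-regulated kinase) was at 43.4 and 54.8 CPM in Control and 32.8, 39.1 and 43.5 CPM in PRC1 i2KO, with overlapping groups (log2 -0.36, SE 0.16, edgeR adjusted p 0.114), and passed the test without PRC1 i2KO 3 (log2 -0.45, adjusted p 0.0383). Eif2ak3 (PERK, the sensor of the endoplasmic reticulum) was at 35.4 and 38.4 CPM against 31.7, 24.5 and 29.8 CPM (log2 -0.37, SE 0.15, adjusted p 0.0919). Eif2ak4 (GCN2, which senses uncharged tRNA) was at 40.0 and 40.7 CPM against 32.4, 33.1 and 29.5 CPM (log2 -0.35, SE 0.13, adjusted p 0.0652). PRC1 i2KO lay below both Control libraries for Eif2ak3 and Eif2ak4. Eif2ak2 (PKR, the sensor of double-stranded RNA) was at 29.9 and 26.0 CPM against 30.2, 36.7 and 33.4 CPM (log2 0.27, SE 0.15, adjusted p 0.211), with PRC1 i2KO above Control by a narrow gap.

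The genes grouped here under start codon choice and subunit joining, Eif1ad among them, did not move as 1 group. Of the 9 genes 4 rose, 0 fell, and the median log2 fold change was 0.03. Eif1a, 1 of 2 genes for eIF1A, which keeps the scanning ribosome open, was at 44.7 and 28.0 CPM in Control and 77.6, 85.6 and 61.3 CPM in PRC1 i2KO. It rose 2.10-fold (log2 1.07, SE 0.23, edgeR adjusted p 0.0105) and stayed called in every fit that left out 1 library. The other eIF1A gene, Eif1ax, was at 97.8 and 113 CPM against 97.4, 87.4 and 81.3 CPM and was not called (log2 -0.25, adjusted p 0.124). The TPM ratio of Eif1ax to Eif1a was 2.29 and 2.74 in Control and 0.844, 0.918 and 1.19 in PRC1 i2KO, without overlap. The 2 genes are near-identical copies, so the split of reads between them is uncertain.

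Eif2a, an alternative carrier of initiator tRNA, was at 66.8 and 65.5 CPM in Control and 97.0, 97.7 and 82.1 CPM in PRC1 i2KO (log2 0.48, SE 0.11, edgeR adjusted p 0.00951). That rise was not called without Control 3 (adjusted p 0.0763). Eif5b, the GTPase of subunit joining, rose 1.41-fold (adjusted p 0.0145, and 0.104 without Control 1), and Eif1ad 1.41-fold (adjusted p 0.0344, called in 1 of the 5 fits that left out a library). In TPM the groups overlapped for Eif2a, Eif5b and Eif1ad. Eif5b was at 45.9 and 31.9 TPM in Control and 36.5, 37.0 and 45.0 TPM in PRC1 i2KO. Eif1, which guards start codon choice, was at 434 and 303 CPM in Control against 345, 306 and 302 CPM in PRC1 i2KO, and Control 1 stood well above all other libraries (log2 -0.21, SE 0.15, adjusted p 0.314). Its direction depended on the Control library: 0.07 without Control 1 and -0.45 without Control 3, where it was called lower (adjusted p 0.0431). Its copy Eif1b was at 21.8 and 18.9 CPM against 15.5, 17.2 and 24.9 CPM, with overlapping groups (adjusted p 0.843). Eif5, which triggers GTP hydrolysis on eIF2, and Eif2d were not called, with log2 fold changes of 0.03 and -0.03.

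The eIF3 complex, the scaffold that holds the small subunit ready, rose across most of its subunits. Of its 14 genes 9 rose and 0 fell, beside 18.8% and 15.1% of all tested genes, and the median log2 fold change was 0.39. In CPM 13 lay above Control without overlap, beside 30% of all tested genes. On log2(TPM + 1) 2 of the 14, Eif3b and Eif3c, were called higher and the median was 0.19. Of the risen genes Eif3d overlapped between groups in TPM (97.1 and 112 against 115, 108 and 107 TPM). Eif3b, which binds RNA at the core, was at 164 and 185 CPM in Control and 258, 269 and 271 CPM in PRC1 i2KO (1.53-fold, log2 0.61, SE 0.10, edgeR adjusted p 0.00142). Eif3c, another core subunit, was at 160.4 and 175 CPM against 248, 246 and 247 CPM (1.47-fold, SE 0.10 on the log2 scale, adjusted p 0.00179). The other 7 risen genes were Eif3a, Eif3d, Eif3f, Eif3h, Eif3i, Eif3l and Eif3m, with rises from 1.24-fold (Eif3l) to 1.43-fold (Eif3f, whose promoter and start are printed above). Eif3d and Eif3l were called in 1 of the 5 fits that left out a library (adjusted p up to 0.194 and 0.169), Eif3a lost its call without Control 1 or PRC1 i2KO 2, Eif3f without Control 1 and Eif3h without Control 3 (adjusted p up to 0.0915, 0.0698 and 0.0795). Eif3e, Eif3g, Eif3j1 and Eif3k were not called, with log2 fold changes from 0.18 to 0.36. Eif3j2, at 4.68 and 6.66 CPM against 7.98, 3.95 and 3.79 CPM, was the 1 gene of the complex whose groups overlapped in CPM. It is a near-identical copy of Eif3j1.

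The summed eIF3 level was 1868 and 1995 CPM in Control and 2621, 2633 and 2533 CPM in PRC1 i2KO. Among the 12 subunits other than Eif3j1 and Eif3j2, the highest TPM was 4.13 and 3.50 times the lowest in the 2 Control libraries and 3.71, 3.85 and 3.88 times in the PRC1 i2KO libraries. These ranges overlapped between the groups. Eif3k and Eif3h were the highest of the complex in Control (363 and 348 TPM on average), and Eif3h and Eif3k in PRC1 i2KO (419 and 369 TPM).

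**Figure D2:**
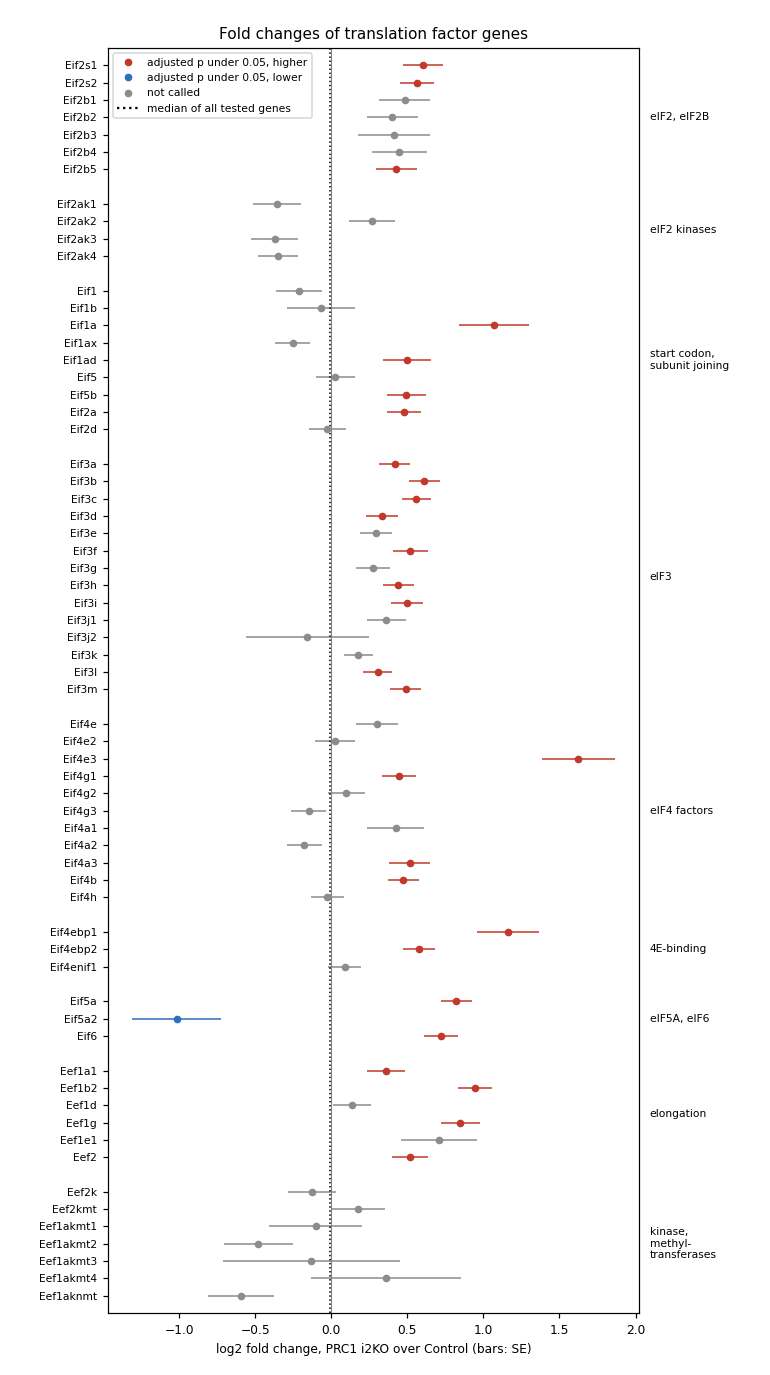
Log2 fold change of each of the 64 tested genes (points) with its SE (bars), PRC1 i2KO over Control from the edgeR fit, coloured by call, with the median of all tested genes (-0.01) as a dotted line. The 28 red points span 1.24-fold to 3.08-fold, and Eif5a2 is the single blue point.

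The eIF4 factors differed from gene to gene. Of 11 tested genes 4 rose (Eif4e3, Eif4b, Eif4a3 and Eif4g1) and 0 fell, with a median log2 fold change of 0.30. Eif4e3, a cap-binding relative of eIF4E, was at 6.03 and 4.76 CPM in Control and 16.2, 15.5 and 17.5 CPM in PRC1 i2KO, the largest fitted rise of the 64 (3.08-fold, log2 1.62, SE 0.24, edgeR adjusted p 0.000705). Eif4e, the main cap-binding protein, was at 54.4 and 51.8 CPM against 68.1, 72.8 and 54.8 CPM (log2 0.30, SE 0.14, adjusted p 0.129), and it was called higher without PRC1 i2KO 3 (log2 0.42, adjusted p 0.0123). Eif4e2, a cap-binding protein that does not bind eIF4G, was at 53.2 and 55.4 CPM against 58.7, 47.6 and 59.7 CPM, with overlapping groups (log2 0.02, adjusted p 0.911). In TPM, Eif4e exceeded Eif4e3 by 14.6 and 19.9 times in Control and by 6.87, 9.04 and 6.66 times in PRC1 i2KO, so Eif4e3 stayed the lowest of the 3 in every library.

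Among the scaffolds, Eif4g1, which bridges the cap complex and eIF3, was at 393 and 450.2 CPM in Control and 532, 595 and 599 CPM in PRC1 i2KO (1.36-fold, log2 0.45, SE 0.11, edgeR adjusted p 0.0123). The call was lost without Control 1 (adjusted p 0.0983) or PRC1 i2KO 2 (0.0685). Eif4g2, a relative that lacks the eIF4E-binding part, was at 817 and 798 CPM against 904, 939 and 754 CPM (adjusted p 0.568). Eif4g3 was at 185 and 196 CPM against 167, 156 and 192 CPM (adjusted p 0.353). Both overlapped between groups. The TPM ratio of Eif4g1 to Eif4g3 was 2.66 and 2.75 in Control and 3.47, 5.10 and 4.24 in PRC1 i2KO.

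Among the helicases, Eif4a1 was at 634 and 425 CPM in Control and 769.5, 757 and 601 CPM in PRC1 i2KO and Eif4a2 at 617 and 529 CPM against 545, 517 and 459 CPM. Neither was called (log2 0.42 and -0.18, SE 0.19 and 0.12, edgeR adjusted p 0.12 and 0.284). For Eif4a1 the Control libraries lay far apart, with Control 1 above PRC1 i2KO 3. It was called higher without Control 1 (log2 0.74, adjusted p 0.0114) and without a filter on low counts (log2 0.42, adjusted p 0.00142). Their TPM ratio, in contrast, did not overlap between the groups, at 1.12 and 0.871 in Control and 1.39, 1.37 and 1.38 in PRC1 i2KO. Eif4a3, a helicase of the exon junction complex rather than of initiation, was at 41.5 and 53.1 CPM against 73.3, 63.7 and 67.7 CPM (1.43-fold, adjusted p 0.0156, and 0.119 without Control 1 or 0.0553 without PRC1 i2KO 1). Eif4b, which stimulates eIF4A, was at 486 and 502 CPM against 701, 708 and 650.0 CPM (1.39-fold, SE 0.10 on the log2 scale, adjusted p 0.00564), while the related cofactor Eif4h had a log2 fold change of -0.02 (adjusted p 0.884).

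Control 1 was higher than Control 3 in several transcripts of immediate stress response as well as in Eif1 and Eif4a1; these were picked after their values were seen. Atf3 was at 1913 CPM in Control 1 and 915 CPM in Control 3, Ppp1r15a at 450.1 and 240.3 CPM, and Myc at 499 and 247 CPM. The PRC1 i2KO libraries ranged from 1024 to 1711 CPM for Atf3, from 374 to 489 CPM for Ppp1r15a and from 403 to 596 CPM for Myc. The part of that difference in the results for Eif1 and Eif4a1 was not tested.

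Of the 3 tested genes of eIF4E-binding proteins, 2 rose. These 2 proteins keep eIF4E from eIF4G. Eif4ebp1 was at 11.4 and 14.2 CPM in Control and 28.2, 34.4 and 24.5 CPM in PRC1 i2KO, 2.24-fold (log2 1.16, SE 0.20, edgeR adjusted p 0.0018). Eif4ebp2 was at 127 and 145 CPM against 213, 194 and 204 CPM, 1.49-fold (log2 0.58, SE 0.11, adjusted p 0.00239). Neither pair of groups overlapped, and both calls held in every fit that left out 1 library. Eif4ebp2 was the more abundant of the 2 per length in every library, at 2.57 and 2.40 times Eif4ebp1 in Control and 1.95, 1.34 and 2.31 times in PRC1 i2KO. Eif4ebp3 had 0 and 11.3 reads in Control and 2.72, 10.4 and 9.3 reads in PRC1 i2KO and was not tested. Eif4enif1, which carries eIF4E to the nucleus and to processing bodies, was not called (log2 0.09, adjusted p 0.576).

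The 2 genes of eIF5A went apart. eIF5A, which carries the amino acid hypusine, helps ribosomes through difficult peptide bonds. Eif5a was at 362 and 339.8 CPM in Control and 649, 619.9 and 592 CPM in PRC1 i2KO, 1.77-fold higher (log2 0.82, SE 0.10, edgeR adjusted p 0.000254). Eif5a2 was at 18.7 and 20.8 CPM against 12.7, 10.9 and 6.05 CPM, 2.02-fold lower (log2 -1.02, SE 0.29, adjusted p 0.0247), and PRC1 i2KO 3 was the lowest. The groups overlapped for neither gene. The fall of Eif5a2 was not called without Control 1 (adjusted p 0.0635), Control 3 (0.135) or PRC1 i2KO 2 (0.0627), nor on the TPM scale (0.0538). The TPM ratio of Eif5a to Eif5a2 was 90.7 and 75.4 in Control and 236, 273 and 437 in PRC1 i2KO, a 3.68-fold shift. Both promoters held CACGTG, as printed above.

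Eif6, which keeps large subunits from joining too early and is needed to make them, was at 65.4 and 63.0 CPM in Control and 115, 108 and 95.3 CPM in PRC1 i2KO, 1.65-fold higher (log2 0.72, SE 0.11, edgeR adjusted p 0.000958). The call held in every fit that left out 1 library.

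Elongation factors held most of the translation factor reads, and Eef1a1 alone most of the elongation factor reads. The summed level of elongation factors was 11453 and 11574 CPM in Control and 15774, 16046 and 14959.7 CPM in PRC1 i2KO, 4 of 6 tested genes rose, 0 fell, and the median log2 fold change was 0.61. Without Eef1a1 the sum was 4124 and 4424 CPM against 6178, 6305 and 6398 CPM, and that of all translation factors 11847 and 11965 CPM against 15709, 15812 and 15339 CPM, again without overlap. Eef1b2, the nucleotide exchange subunit of eEF1B, was at 217 and 189 CPM in Control and 382, 414 and 372 CPM in PRC1 i2KO (1.92-fold, log2 0.94, SE 0.11, edgeR adjusted p 0.000173). Eef1g, its structural subunit, was at 403 and 340.2 CPM against 699.7, 716 and 589 CPM (1.80-fold, log2 0.85, SE 0.13, adjusted p 0.000801). Eef1d, the other exchange subunit, was not called (log2 0.13, SE 0.12, adjusted p 0.45), with PRC1 i2KO 1 between the 2 Control libraries.

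Eef2, the translocase, was at 3331 and 3711 CPM in Control and 4917, 4981 and 5208 CPM in PRC1 i2KO (1.43-fold, log2 0.52, SE 0.12, edgeR adjusted p 0.00776). It was not called without PRC1 i2KO 1 (adjusted p 0.0507) or PRC1 i2KO 2 (0.0657). Eef1a1, the carrier of charged tRNA, was at 7329 and 7150.2 CPM against 9596, 9742 and 8562 CPM (1.28-fold, log2 0.36, SE 0.12, adjusted p 0.048). The groups did not overlap for either gene, but the call for Eef1a1 was marginal: it was lost without Control 1, Control 3, PRC1 i2KO 1 or PRC1 i2KO 2 (adjusted p 0.1, 0.171, 0.214 and 0.255), with relative log expression scaling (0.0501), with at least 10 reads in every library (0.066), with the 3 deepest libraries (0.41) and on the TPM scale (0.138). Eef1a2, its form in muscle and nerve, had 3 reads in PRC1 i2KO 2 and 0 in every other library. Eef1e1, a partner of the tRNA synthetase complex, was at 7.38 and 7.25 CPM against 11.1, 13.9 and 10.8 CPM and missed the threshold (log2 0.71, SE 0.25, adjusted p 0.0529).

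None of the 7 enzymes that modify elongation factors was called by edgeR. Of these, 2 (Eef1akmt2 and Eef1aknmt) lay below Control without overlap, beside 29.4% of all tested genes. Only 1 was lower at an unadjusted p under 0.05, beside 20.1% of all tested genes. The median log2 fold change was -0.13. Eef2k, the kinase that inactivates eEF2, was at 97.0 and 118 CPM in Control and 83.4, 93.1 and 119 CPM in PRC1 i2KO (log2 -0.13, SE 0.16, adjusted p 0.585). Eef1aknmt, which methylates eEF1A, was at 38.6 and 46.4 CPM against 26.6, 21.4 and 36.9 CPM (adjusted p 0.0668) and was called lower without PRC1 i2KO 3.

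**Figure D3:**
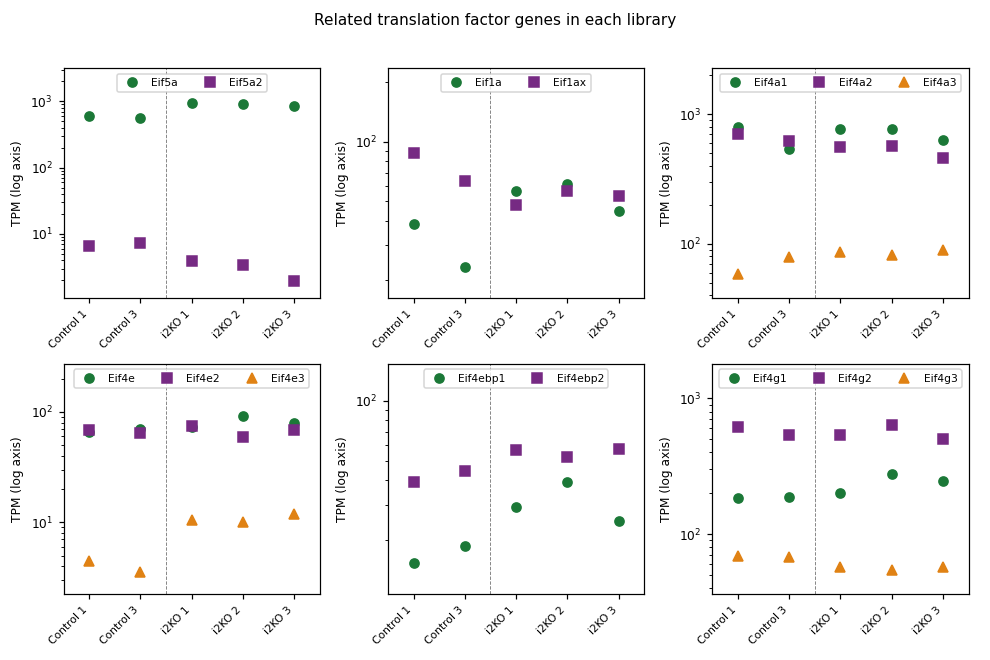
TPM of related translation factor genes in each library on log axes, with Control libraries left of the dashed line and PRC1 i2KO libraries to its right. Eif5a and Eif5a2 move apart, Eif1a rises to the level of Eif1ax, and Eif4e3 rises but remains below Eif4e and Eif4e2.

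In TPM, which allows levels of different genes to be compared, Eef1a1 was the highest translation factor in both groups (8571 TPM in Control and 9746 TPM in PRC1 i2KO on average) and Eef2 the second (2149 and 2761 TPM). Below them the order changed. Eif5a moved from rank 6 (580.0 TPM) to rank 3 (907 TPM), Eef1b2 from rank 8 (525 TPM) to rank 4 (879 TPM) and Eef1g from rank 10 (416 TPM) to rank 6 (654 TPM). Eif1, which was not called, stood at rank 3 in Control (695 TPM) and at rank 8 in PRC1 i2KO (551 TPM). Ranks 3 to 5 in Control, Eif1, Eif4a1 and Eif4a2 at 695, 667 and 665 TPM, did not differ beyond the spread between the 2 Control libraries, since Eif1 alone ranged from 576 to 814 TPM. In Control, 25 of the 85 genes reached a mean of 100 TPM.

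Across related genes, 14 TPM ratios were compared by exact two-sided permutation of the 5 libraries. With 2 against 3 libraries the smallest p is 0.2, so none could pass 0.05, and the adjusted value of each ratio without overlap was 0.28. The ratios above are therefore descriptions.

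The 19 genes with no read in any library were 16 copies of Eif1ad (Eif1ad2 to Eif1ad19 by name), Eif4e1b, an oocyte form of eIF4E, and Eif4a3l1 and Eif4a3l2. For each, 0 reads allows a level of up to 0.0333 CPM over the 5 libraries together, counting error only.

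Genes of the pathways that act on translation factors were read in the same fit, in which 18.8% of all tested genes were called higher and 15.1% lower. Among 23 tested target genes of the integrated stress response, 10 rose and 2 fell (median log2 fold change 0.34). The smallest adjusted p values were those of Slc7a5, an amino acid transporter, at 28.4 and 23.7 CPM against 76.5, 70.8 and 67.8 CPM (2.77-fold, edgeR adjusted p 3.67e-05), and Psat1, of serine synthesis, at 30.9 and 22.0 CPM against 91.5, 92.5 and 76.3 CPM (3.33-fold, adjusted p 5.77e-05). Atf4, the central factor of that response and itself controlled mainly at translation, was at 371 and 256 CPM against 328, 334 and 300.1 CPM (adjusted p 0.88); it was named after its values were seen. The 2 that fell were Chac1 and Vldlr. Among 25 tested genes of mTORC1 signalling, 3 rose and 1 fell (median 0.15), that is 12% and 4%, both below the shares of all tested genes. Deptor, an inhibitor of mTOR, was at 19.3 and 18.3 CPM against 78.8, 60.1 and 99.7 CPM (4.24-fold, adjusted p 0.000195). Tsc1, an inhibitor upstream of mTORC1, was at 78.9 and 75.3 CPM against 43.2, 48.3 and 47.1 CPM (1.66-fold lower, adjusted p 0.00074). The other risen genes were Larp1 and Pdcd4, which restrain translation of certain messages and eIF4A respectively.

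Of 30 genes of initiation helpers, termination and recycling 8 rose and 0 fell (median log2 fold change 0.26). Pabpc1, the poly(A)-binding protein that contacts eIF4G, was at 661 and 637 CPM in Control and 1662, 1657 and 1348 CPM in PRC1 i2KO (2.40-fold, edgeR adjusted p 7.35e-05), and Bzw2, a mimic of eIF5, at 22.4 and 29.6 CPM against 54.9, 52.3 and 48.7 CPM (1.97-fold, adjusted p 0.000928). Of 9 enzymes that make hypusine on eIF5A and diphthamide on eEF2, 0 rose and 1 fell: Dph3 (1.56-fold lower, adjusted p 0.04999, called in 1 of the 5 fits that left out a library). Of 12 mitochondrial translation factors 3 rose, among them Tufm (1.84-fold, adjusted p 0.000243) and Gfm1 (1.35-fold, adjusted p 0.036, called in 1 of those 5 fits), and 0 fell (median 0.13), with 25% called higher beside 18.8% of all tested genes. Of 12 genes of the MYC family and its partners 4 rose and 3 fell (median 0.24), with Mycl at 7.88 and 4.82 CPM against 30.2, 36.1 and 38.3 CPM (5.77-fold, adjusted p 5e-05) and Mxd4 at 281 and 276 CPM against 143, 139 and 161 CPM (1.88-fold lower, adjusted p 0.000132). Myc itself had an adjusted p of 0.361. Where edgeR called 0 in these lists DESeq2 did too, while at an unadjusted p under 0.05 1 helper and 1 mitochondrial gene were lower and 2 of the hypusine and diphthamide enzymes higher.

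Other parts of the machinery were read in the same fit. Of 75 cytoplasmic ribosomal protein genes 69 rose and 0 fell (median log2 fold change 0.57), with Rps12 (1.89-fold, edgeR adjusted p 0.000167) and Rplp0 (1.88-fold, adjusted p 0.000173) at the lowest p. Of 20 cytoplasmic aminoacyl-tRNA synthetase genes 7 rose and 0 fell (median 0.25), with Vars (2.16-fold, adjusted p 4.24e-05) and Mars1 (1.76-fold, adjusted p 0.000745) at the lowest p. DESeq2 also called 0 of both lists lower, as did an unadjusted p under 0.05. The difference between these lists and the translation factors was not tested.

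**Figure D4:**
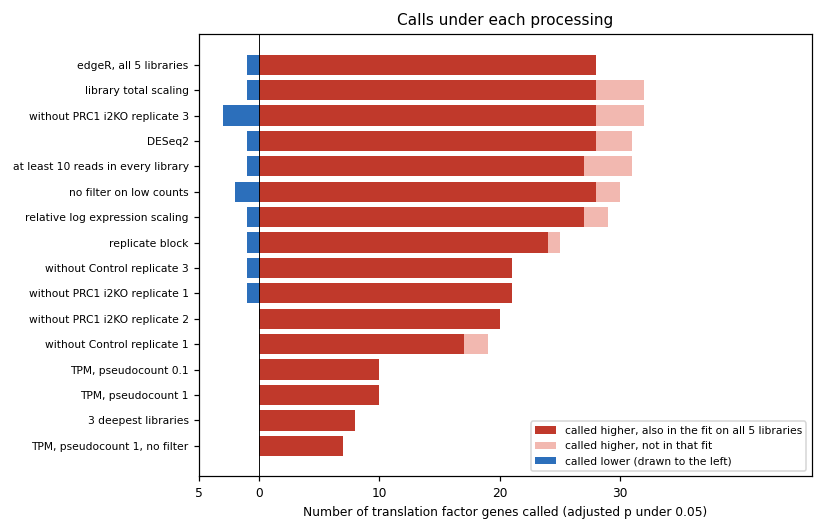
Number of the translation factor genes called under each processing, with genes called higher to the right (dark where also called in the edgeR fit on all 5 libraries) and genes called lower to the left. Counts called higher range from 7 to 32, and those called lower from 0 to 3.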

How the data were processed

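RNA-seq of sorted hair follicle stem cells was read from the authors' deposited table of 55357 genes. The authors deposited 1 column of estimated counts per library, headed as counts per the file headers; 9.06% of genes have fractional values there, as estimated (expected) counts do. A TPM column per library was deposited too. The build mm39 is named in the submitters' processing notes, beside RSEM 1.3.3, STAR 2.7.9a and DESeq2 1.38.2. Annotation and strandedness were not found in the sources used here. Expected counts shared between near-identical copies (Eif1a and Eif1ax, Eif3j1 and Eif3j2, Eif4a1 and Eif4a2, Eif1 and Eif1b), or with pseudogenes of Eef1a1 and Eif5a, are uncertain. Control 3 is numbered by its title and table column; its description in the labels gives the number 2 instead.

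Expected counts were rounded and tested with edgeR 4.0.16 (R 4.3.3): filterByExpr, TMM, robust quasi-likelihood F test, genotype as the only term, all 5 libraries (n = 2 and 3), Benjamini-Hochberg adjustment over 15665 genes, called under 0.05. CPM use the TMM scaling. A log2 fold change's SE is its size over the square root of F. CPM compare shares of a library, not amounts per cell. The floor for 0 is 3 reads. DESeq2 1.42.0, limma 3.58.1 on log2(TPM + 1) and log2(TPM + 0.1), other scalings and filters, the 3 deepest libraries, a replicate term and each library left out were tried. Libraries of a group differed by more than sampling noise (10.3 to 43.1 as chi-square over its degrees of freedom). Ratios of related genes (14) were compared by exact permutation in scipy 1.17.1. Promoter windows came from RefSeq (GRCm38.p6), matched by symbol.

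Genes, roles, lists and alternatives were chosen with earlier results of these data known. Genes named with values in every library were 18 set in advance whatever their result, the 8 largest called rises and falls, the 2 called genes of smallest adjusted p in each role (else the highest in TPM), and sets of related genes. From each pathway list the 2 called genes of smallest adjusted p were named. Others were named after their values were seen.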

Additional observations from a re-analysis of the deposited data

How the results depend on the processing

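The count of translation factor genes called higher, 28 of 64, lay between 25 and 32 with DESeq2, other scalings, other filters on low counts and a replicate block, and between 19 and 32 when 1 library was left out. It dropped to 8 with only the 3 deepest libraries, to 10 on log2(TPM + 0.1), to 10 on log2(TPM + 1) and to 7 on log2(TPM + 1) without a filter; the first has 3 samples, and the cause of the others was not tested. The count called lower, 1, became 0 in each of those 4 settings and 2 without a filter on low counts, and ranged from 0 to 3 when 1 library was left out. The median log2 fold change of 0.36 was 0.39 with library totals and 0.16 in TPM. Over the 6 pathway lists, 28 genes called higher became 17 in TPM and 16 in TPM without a filter, and 7 called lower became 4 in the latter; with 1 library left out the counts ran from 21 to 31 and from 4 to 7. Of 480 comparisons of a named gene with an alternative, 400 kept direction and call, 60 lost the call, 6 gained it and 14 changed sign, all in genes without a call. With the 3 deepest libraries, the log2 fold change of Eif1 became 0.0166, of Eif1b 0.164 and of Eif4e2 -0.0349. In TPM that of Eif4g2 became -0.0501 with a pseudocount of 0.1 and -0.05 with 1, filtered or not. With 1 library left out, Eif1 ranged from -0.451 to 0.0661, Eif1b from -0.299 to 0.0648, Eif4e2 from -0.0371 to 0.127 and Eef2k from -0.285 to 0.0247. The replicate numbers 1 and 3 are shared by both groups, but are not said to mark shared litters or days, so they were not taken as pairs. Deviations of same-numbered libraries from their group means had correlations of 0.07 and 0.11. These cannot settle the pairing, because the 2 Control libraries deviate from their own mean by exactly opposite amounts. With the replicate block 25 were called higher, 24 of them among the 28, and 1 lower. The gained gene was Eif4a1 (log2 0.39, adjusted p 0.0351), and Eef1a1 was among those lost (0.0932). This block takes the number of Control 3 from its title; a block on the number 2 of its description was not run. Among translation factor genes under 10 CPM, SEs on the log2 scale reached 0.58. Whether depth sets them was not tested.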
